A study of Mus musculus with 12 samples.

Results

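Of the 3294 c-Fos peaks on chromosomes 1 to 19 and X, 220 had their midpoint within 1 kb of either end of a protein-coding gene (6.68%, exact 95% binomial interval 5.85 to 7.59), out of 3295 in the whole list. These gene-end peaks were chosen by position alone, from the deposited peak coordinates (mm10) and the gene ranges of RefSeq on GRCm38.p6, the assembly that mm10 represents. At the 1 kb limit, the last peaks included had midpoints 941 bp (Helt), 978 bp (Copb1) and 983 bp (Otp) from a gene end, and the first left out lay at 1008.5 bp (Aknad1), 1021 bp (Ccdc185) and 1023 bp (H2az1). Of 21523 protein-coding genes, 261 had such a peak (1.21%, interval 1.07 to 1.37). Intervals are exact 95% binomial intervals throughout and reflect only how many peaks, genes or windows were counted.

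The study mapped c-Fos by CUT&RUN: an antibody on the chromatin tethers a nuclease, and the DNA that is cut free is sequenced. Nuclei came from CA1, a pyramidal cell field of the hippocampus, of C57BL/6 mice aged 3 to 4 weeks. All mice carried CaMK2a-Cre/+ and LSL-Sun1-GFP/+, so that Cre under CaMK2a, active in excitatory forebrain neurons, switched on a fluorescent nuclear envelope tag on which nuclei were sorted. The groups were kainic acid with c-Fos antibody, kainic acid with rabbit IgG, PBS with c-Fos antibody and PBS with rabbit IgG, with 3 replicates each, 50000 nuclei per reaction and 2 to 3 h after intraperitoneal injection; how many animals a replicate held is not stated. Kainic acid activates glutamate receptors and provokes intense firing. The c-Fos antibody was made in-house, and the peaks were called replicated by the authors, for c-Fos relative to IgG in kainic acid mice. They come as 1 list without heights or values per library, so read depth and spread between replicates are unknown, no expression marker could be checked, and neither a test across samples nor a test between shares was run. PBS libraries were not analysed here, so whether a peak was present before kainic acid was not tested.

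c-Fos dimerizes with Jun proteins to form AP-1, which binds the letters TGANTCA (N is any base), most often in enhancers away from transcription starts. The related letters TGACGTCA, the cAMP response element (CRE), are bound by CREB and ATF proteins and also by some Fos, Jun and ATF dimers, and TGACG is its shorter core. A gene end is either the start of transcription, where the promoter lies, or the far end, where the transcript stops. Promoters of inducible neuronal genes often carry CREs, to which CREB recruits coactivators when calcium enters the cell.

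RefSeq promoter windows of 300 bases (250 before a transcription start and 50 from it on, GRCm38.p6) lay under many of these peaks, and a few are shown because they carry the matches described below. Each is printed 5′ to 3′ on the gene's own strand, with the matches in capitals, and positions count from 0 at the transcription start to the first base of the match. The first group holds activity-induced genes. Scg2 (chr1:79439977-79440276, minus strand) has TGACGTCA at -68. Dusp1 (chr17:26508423-26508722, minus strand) has it at -143. Maff (chr15:79347270-79347569, plus strand, a start inside the gene range) has it at -29. Homer1 (chr13:93303507-93303806, plus strand) has no full CRE but the core TGACG at -56, -40 and -14.
Scg2: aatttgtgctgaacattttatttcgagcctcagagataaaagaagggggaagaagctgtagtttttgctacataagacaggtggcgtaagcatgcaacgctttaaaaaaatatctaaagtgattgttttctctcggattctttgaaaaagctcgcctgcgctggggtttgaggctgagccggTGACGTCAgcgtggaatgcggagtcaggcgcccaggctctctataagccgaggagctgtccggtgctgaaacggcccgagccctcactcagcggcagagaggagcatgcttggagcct
Dusp1: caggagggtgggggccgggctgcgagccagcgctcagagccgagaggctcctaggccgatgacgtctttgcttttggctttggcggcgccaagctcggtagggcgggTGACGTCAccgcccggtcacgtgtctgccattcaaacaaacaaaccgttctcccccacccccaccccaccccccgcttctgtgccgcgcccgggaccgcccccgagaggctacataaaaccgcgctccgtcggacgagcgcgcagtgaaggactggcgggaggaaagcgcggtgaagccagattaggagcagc
Maff: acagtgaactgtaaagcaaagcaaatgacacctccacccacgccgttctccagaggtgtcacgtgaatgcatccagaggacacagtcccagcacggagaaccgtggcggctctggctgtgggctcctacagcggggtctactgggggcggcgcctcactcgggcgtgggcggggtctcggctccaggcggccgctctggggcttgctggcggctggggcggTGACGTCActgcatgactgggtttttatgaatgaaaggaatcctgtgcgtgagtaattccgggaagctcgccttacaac
Homer1: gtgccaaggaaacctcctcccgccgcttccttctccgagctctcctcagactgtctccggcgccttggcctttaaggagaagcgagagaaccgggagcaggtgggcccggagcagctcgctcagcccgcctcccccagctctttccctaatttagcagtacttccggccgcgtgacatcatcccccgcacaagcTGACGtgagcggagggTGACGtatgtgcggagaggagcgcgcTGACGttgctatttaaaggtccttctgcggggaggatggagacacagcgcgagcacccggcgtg

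The second group shows CREs under peaks at genes of general cell function, chosen after the matches were seen. Rab5a (chr17:53478984-53479283, plus strand), a GTPase of early endosomes, has TGACGTCA at -28. Cycs (chr6:50566520-50566819, minus strand), which encodes cytochrome c, has it at -169. Ttc19 (chr11:62281223-62281522, plus strand), a factor of respiratory complex III, has it at -51, and the divergent neighbour Zswim7 shares that match.
Rab5a: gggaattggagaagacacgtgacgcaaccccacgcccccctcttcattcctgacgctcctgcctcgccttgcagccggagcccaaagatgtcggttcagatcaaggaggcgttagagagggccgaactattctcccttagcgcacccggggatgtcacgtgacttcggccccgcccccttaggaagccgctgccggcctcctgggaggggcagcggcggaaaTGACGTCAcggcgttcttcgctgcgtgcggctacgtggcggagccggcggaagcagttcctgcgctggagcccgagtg
Cycs: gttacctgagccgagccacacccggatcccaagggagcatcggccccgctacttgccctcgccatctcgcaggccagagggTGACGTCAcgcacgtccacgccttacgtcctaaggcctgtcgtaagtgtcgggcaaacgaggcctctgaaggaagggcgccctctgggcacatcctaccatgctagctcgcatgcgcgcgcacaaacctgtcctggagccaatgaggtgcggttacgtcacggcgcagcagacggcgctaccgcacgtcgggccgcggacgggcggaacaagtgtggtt
Ttc19: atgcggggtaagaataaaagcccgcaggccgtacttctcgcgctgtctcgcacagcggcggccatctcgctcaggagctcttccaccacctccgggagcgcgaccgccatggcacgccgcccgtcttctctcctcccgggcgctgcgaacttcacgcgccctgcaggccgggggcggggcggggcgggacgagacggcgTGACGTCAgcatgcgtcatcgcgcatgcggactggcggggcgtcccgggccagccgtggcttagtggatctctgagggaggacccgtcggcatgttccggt

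The third group shows AP-1 letters, also chosen after the matches were seen. Serpinb8 (chr1:107589756-107590055, plus strand), a serine protease inhibitor, has TGAGTCA at -23 and again at 13. Rtn4 (chr11:29692648-29692947, plus strand), which encodes the axon growth inhibitor Nogo, has it at 15. Inpp5a (chr7:139388859-139389158, plus strand), an inositol phosphate phosphatase, has TGACTCA at -180. Usp38 (chr8:81014857-81015156, minus strand), a deubiquitinase, has TGACTCA at -218.
Serpinb8: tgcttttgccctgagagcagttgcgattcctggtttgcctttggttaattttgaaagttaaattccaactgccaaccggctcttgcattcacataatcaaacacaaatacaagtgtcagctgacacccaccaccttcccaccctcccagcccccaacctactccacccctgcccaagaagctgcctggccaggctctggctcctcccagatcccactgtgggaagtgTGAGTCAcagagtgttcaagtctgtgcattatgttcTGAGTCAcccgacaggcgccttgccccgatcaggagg
Rtn4: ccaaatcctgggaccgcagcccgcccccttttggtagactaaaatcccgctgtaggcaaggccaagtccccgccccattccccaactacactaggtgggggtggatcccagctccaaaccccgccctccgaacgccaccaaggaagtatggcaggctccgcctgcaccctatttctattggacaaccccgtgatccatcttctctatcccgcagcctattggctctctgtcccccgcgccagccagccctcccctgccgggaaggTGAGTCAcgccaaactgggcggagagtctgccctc
Inpp5a: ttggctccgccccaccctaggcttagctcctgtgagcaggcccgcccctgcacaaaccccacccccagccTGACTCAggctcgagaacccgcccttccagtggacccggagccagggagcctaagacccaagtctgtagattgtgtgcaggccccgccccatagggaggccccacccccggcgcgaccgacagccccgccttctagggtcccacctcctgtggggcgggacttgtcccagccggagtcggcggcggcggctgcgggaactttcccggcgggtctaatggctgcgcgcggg
Usp38: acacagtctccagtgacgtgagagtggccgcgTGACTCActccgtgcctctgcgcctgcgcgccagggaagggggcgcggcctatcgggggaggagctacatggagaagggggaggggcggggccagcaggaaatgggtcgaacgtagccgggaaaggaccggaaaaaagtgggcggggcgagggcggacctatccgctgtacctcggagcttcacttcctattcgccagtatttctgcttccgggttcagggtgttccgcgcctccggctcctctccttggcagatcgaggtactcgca

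Peaks at gene ends were mostly at transcription starts. The promoter table gave the strand of 17274 protein-coding genes (80.3%), which allowed the starts and far ends of those genes to be told apart. Of the 220 peaks, 150 lay at starts alone, 19 at far ends alone, 4 at both kinds of end and 40 at genes without a strand; 6 were at a start and a gene without a strand, and 1 at a far end and such a gene. Among peaks at starts alone or far ends alone, 150 of 169 were at starts (88.8%, exact interval 83.0 to 93.1). Per gene, 190 of the 17274 oriented genes had a peak at the start (1.1%, interval 0.95 to 1.27), against 24 with a peak at the far end (0.139%, interval 0.0890 to 0.207).

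The profile of midpoints showed the same contrast. In the 1 kb upstream of oriented starts there were 101 peak and gene pairs and in the 1 kb downstream 89. In the flanking stretches of 1 to 2 kb on either side there were 20 each. Around far ends, 11 pairs lay in the last 1 kb of the gene and 13 in the 1 kb beyond it, against 19 and 18 in the flanking stretches of 1 to 2 kb. Counts around far ends thus did not rise above their flanks, whereas those around starts did.

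**Figure D1:**
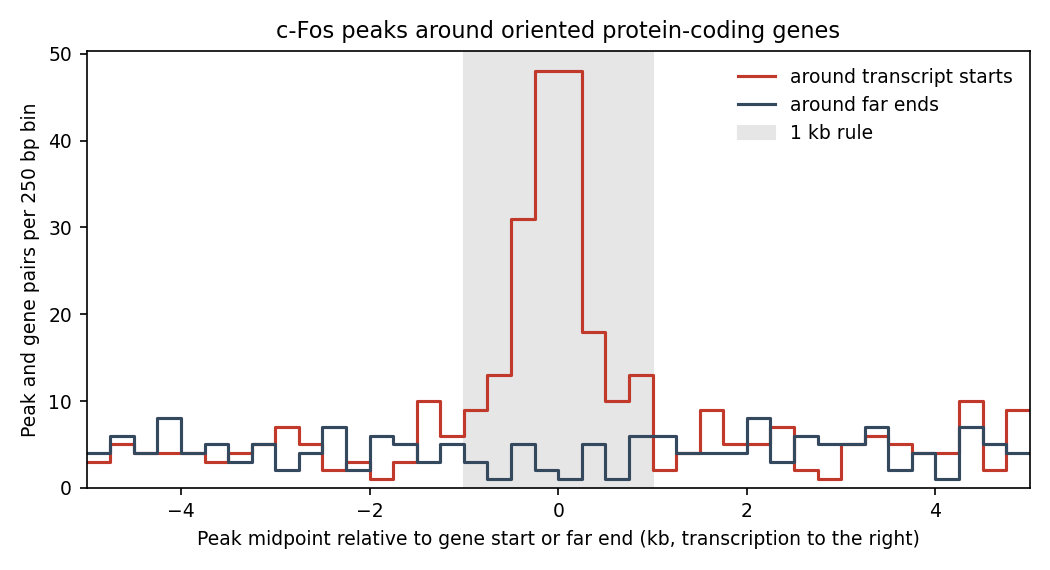
Number of peak and gene pairs in bins of 250 bp by distance of the peak midpoint from the transcript start (red) or far end (dark blue) of 17274 oriented protein-coding genes; grey marks the 1 kb rule. The 2 bins next to the start hold 48 pairs each, while no bin around far ends exceeds 8.

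Most peaks sat directly over the start. Of the 190 pairs at starts, 40 (21.1%) had the midpoint within 100 bp, 96 (50.5%) within 250 bp and 145 (76.3%) within 500 bp. The peak covered the start itself in 173 of 190 pairs (91.1%, interval 86.1 to 94.7). This follows in part from the 1 kb rule, since peaks at starts alone had a median width of 1542.5 bp. The midpoint was upstream in 101 of 190 (53.2%, interval 45.8 to 60.4). The 30 peaks at the starts of 2 genes enter as 2 pairs each, so the pairs are not independent. Whether 1 side was favoured was not tested. Of the 24 pairs at far ends, 0 had the midpoint within 100 bp, which allows a share of up to 14.2% (upper exact bound), and the peak covered the end in 16.

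Among the nearest midpoints were those at Scg2 (6 bp), Sertad2 (6.5 bp), Asb7 (8 bp) and Znrd1 (8.5 bp). Scg2 encodes the neuropeptide precursor secretogranin II and Sertad2 a transcriptional coregulator. Further genes with near midpoints were Lhx8 (10 bp), a LIM homeobox factor, Hscb (11 bp), a chaperone of iron-sulfur cluster assembly, Tti2 (14.5 bp), 9030025P20Rik (15 bp) and Ttc41 (22 bp). Elsewhere in the list, 26 of the other 3074 peaks (0.846%) lay within 1 kb of a RefSeq start that is not a gene end, such as a start inside a gene.

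The 24 genes with a peak at the far end were of mixed kind. The nearest midpoint was 124 bp inside the far end of Pou4f1, a POU homeobox factor of sensory neurons, under a peak of 2941 bp. It was followed by Tmem253 (149.5 bp beyond the end), whose peak also covered a promoter window of Zfp219, a zinc finger gene, and by Gm11568 (228 bp inside), Supt3, a subunit of the SAGA coactivator complex (251.5 bp beyond), and Rpgrip1l, a protein of the ciliary transition zone (257.5 bp inside). Of the 19 peaks at far ends alone, that at Tmem253 was the 1 that covered a promoter window. Fadd, an adaptor of death receptors, had a midpoint 434 bp beyond its end, and Lmo3, a LIM-only transcription cofactor, 769 bp beyond. At Gm11568 and Olfr251, an odorant receptor gene, the same peak lay within 1 kb of both ends of the gene.

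Genes induced by neuronal activity were found at these peaks more often than protein-coding genes as a whole. Of 99 genes on 3 activity-induced lists, 14 had a gene-end peak (14.1%, interval 7.95 to 22.6), against 1.21% of all protein-coding genes. The lists were drawn up with earlier results of these data known, so the counts are a description and carry no test. The transcription factor list had 4 of 32 (interval 3.51 to 29.0), the secreted, synaptic and adhesion list 4 of 30 (13.3%) and the signalling list 6 of 37 (16.2%).

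Among secreted and synaptic genes, the peak at Scg2 (chr1:79439240-79440824, 1585 bp) reached from -798 to 786 relative to the start, nearly centred on it. The peak at Bdnf, encoding brain-derived neurotrophic factor, covered -1251 to 718 around the start of the gene range and 1 of the 7 promoter windows of the gene; 2 other peaks lay outside the gene within 100 kb of it. The peak at Homer1, whose short activity-induced product competes with postsynaptic scaffolds, covered -976 to 1497 and was 2474 bp wide. Lrrtm2, a postsynaptic adhesion protein, had a midpoint 197 bp from a gene end and was not oriented. These peaks therefore covered the start at each of the 3 oriented genes.

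Among signalling regulators, the midpoint lay upstream of the start at each of the 5 oriented genes. It was 336 bp upstream at Dusp1, a phosphatase that inactivates MAP kinases, and 402.5 bp upstream at Gadd45b, a stress and DNA demethylation factor. It was 412.5 bp upstream at Rheb, the GTPase that activates mTORC1, and 464.5 bp upstream at Pim1, a serine/threonine kinase. At Rgs2, a brake on G protein signalling, it was 614.5 bp upstream, and the peak ended 35 bp past the start. Trib1, a pseudokinase that was not oriented, had its midpoint 270 bp outside the gene.

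Among transcription factors, Fosl2, itself a Fos family member, had its peak midpoint 706.5 bp upstream, and the peak reached 92 bp past the start. Klf4, a zinc finger factor, had a peak wholly upstream, from -1357 to -24. Maff, a small Maf protein, had a peak wholly downstream of the start of the gene range, from 83 to 1538. It overlapped 2 of the 3 promoter windows of Maff. The window at chr15:79347270-79347569 lay wholly inside the peak, while that at chr15:79348152-79348451 met only its edge, at 79348159. Klf10, not oriented, had a midpoint 655 bp outside the gene. Over the 11 oriented activity-induced genes, the midpoint was upstream in 9, at Scg2 by only 6 bp. The peak covered the start of the gene range in 9, the exceptions being Klf4 and Maff. Over all 190 pairs at starts, the midpoint was upstream in 53.2% and the peak covered the start in 91.1%. Whether the activity-induced genes differ from all pairs in this was not tested.

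**Figure D2:**
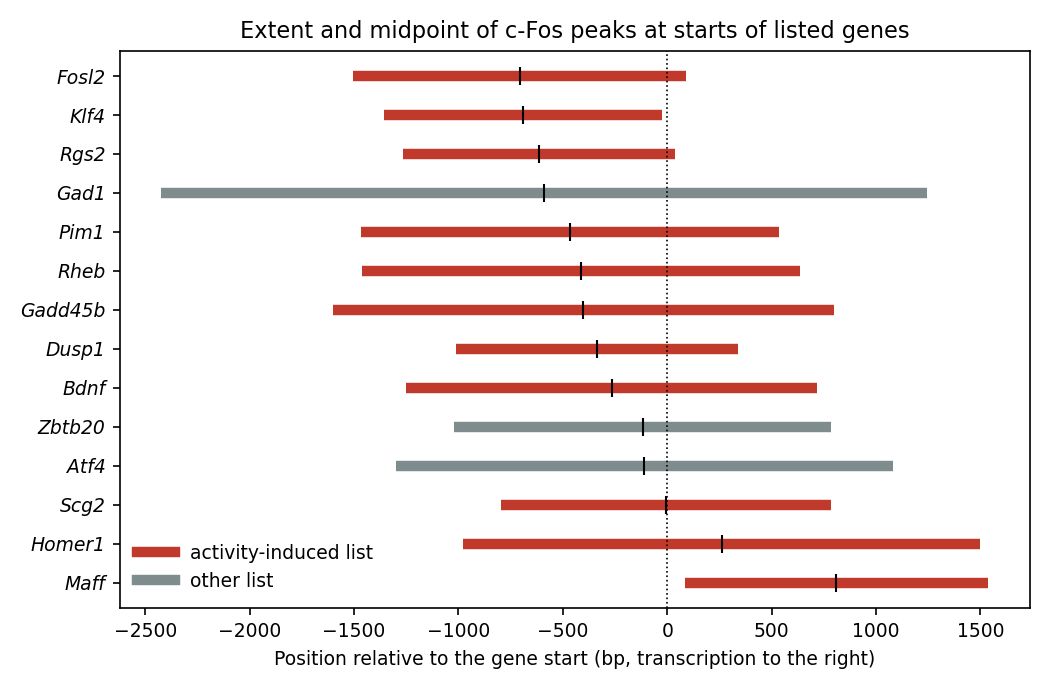
Extent (bar) and midpoint (tick) of the c-Fos peak at the start of 14 listed genes, in bp relative to the start of the gene range (dotted line, transcription to the right), red for activity-induced lists and grey for other lists. Most bars cross the start; Klf4 ends at -24 and Maff begins at 83.

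The other 10 lists mark cell types, synapses and general functions. Pooled, they had a lower share of genes with such peaks than the pooled activity-induced lists (14.1%), but this did not hold for each list. Leaving out genes that are also on an activity-induced list, 4 of 237 had a gene-end peak (1.69%, interval 0.462 to 4.26), against 1.21% of all protein-coding genes. They were Zbtb20, a CA1 transcription factor (118 bp upstream of the start), Atf4, a bZIP factor (110 bp upstream), Gad1, which makes GABA (590 bp upstream), and Dlx2, an interneuron homeobox factor (695 bp beyond the far end). Pyramidal markers thus had 1 of 14 and interneuron markers 2 of 12; the part of interneuron nuclei in the peaks at Gad1 and Dlx2 was not tested. AP-1 partners and Maf factors had 2 of 20 (10%, Atf4 and Maff), and glutamate receptors and postsynaptic scaffolds 2 of 40 (5%, Homer1 and Lrrtm2).

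A count of 0 was found in 6 lists holding 157 genes. They were glial and vascular markers (26 genes), GABA receptors and inhibitory synapses (20), presynaptic release (28), chromatin and transcription machinery (26), housekeeping (27) and genes of other organs (30). At these sizes, the upper exact bound for a count of 0 is 11.6 to 16.8%, well above the 1.21% of all protein-coding genes, so no list is shown to be depleted.

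**Figure D3:**
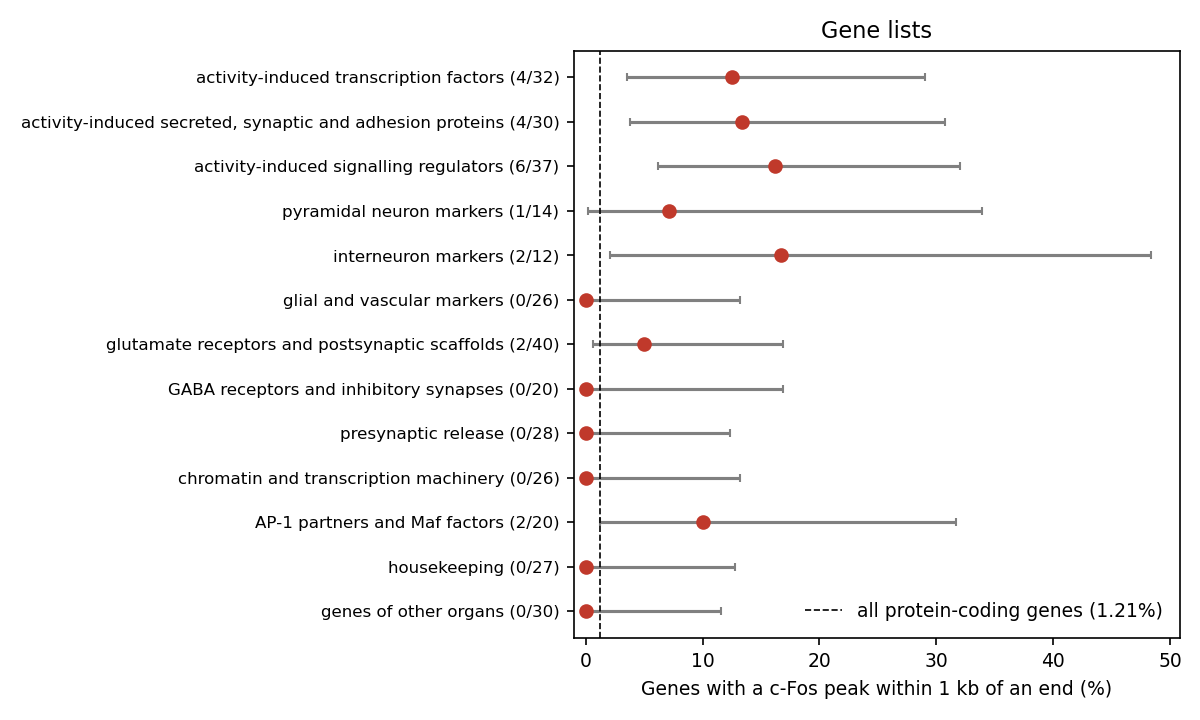
Share of each gene list with a c-Fos peak midpoint within 1 kb of a gene end (points, with exact 95% intervals as bars; counts beside the names); the dashed line marks the 1.21% of all protein-coding genes. The 3 activity-induced lists hold 4 of 32, 4 of 30 and 6 of 37 genes, and 6 lists are at 0.

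Many gene-end peaks sat at pairs of genes that start close together on opposite strands. Of the 220 peaks, 43 lay within 1 kb of the ends of 2 genes (19.5%, interval 14.5 to 25.4) and 0 at those of 3 or more. In 29 of the 43 (67.4%), the genes were oriented on opposite strands, with starts 2 to 799 bp apart (median 193 bp). In some of these pairs, such as Cep57 and Fam76b or Mkks and Slx4ip, the gene ranges overlapped at their starts. There the peak did not lie between the genes. Per gene, 58 of the 190 oriented genes with a start peak had a start on the other strand within 1 kb (30.5%, interval 24.1 to 37.6). Among oriented genes without a start peak this was 1737 of 17084 (10.2%, interval 9.72 to 10.6), and among all oriented genes 10.4%. A peak over a shared promoter is counted for both genes, so the genes of a pair are not independent and enter the first of these shares together. A gene with a close start on the other strand can also be counted through a peak at that start. This raises the first share by construction, and by how much was not tested.

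Examples include 1110032A03Rik and Fdxacb1 (starts 2 bp apart), Mdh1, cytosolic malate dehydrogenase, and Wdpcp, a ciliogenesis protein (35 bp), and Ndufb5 and Mrpl47, of respiratory complex I and the mitochondrial ribosome (302 bp). Zranb3, which remodels stalled replication forks, and R3hdm1 had starts 229 bp apart under a peak of 1671 bp. Prn and Prnp, the prion protein gene, share a start in the RefSeq ranges. At such peaks the position does not tell which gene the peak belongs to.

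Promoters under these peaks were mostly rich in CpG. Of 21045 promoter windows of protein-coding genes, 196, of 175 genes, overlapped a gene-end peak, and 181 lay wholly inside one. The CpG observed to expected ratio had a median of 0.838 in covered windows (quartiles 0.710 and 0.933), against 0.569 in the other 20849 windows (0.230 and 0.827). A ratio of at least 0.6 was found in 169 of 196 covered windows (86.2%, interval 80.6 to 90.7), against 47.8% of the others (interval 47.1 to 48.5). The median GC content was 61.5% (quartiles 55.9 and 66.1%) in covered windows, against 56.7% (48.3 and 64.7%) in the others.

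AP-1 and CRE letters were both more frequent in covered windows, searched on both strands with each place counted once. TGANTCA was present in 32 of 196 covered windows (16.3%, interval 11.4 to 22.3), against 1449 of the other 20849 (6.95%, interval 6.61 to 7.30) and 7.04% of all windows. The 32 include the windows of Gm3417, Gm3448 and Tcte3, neighbouring gene copies that are uncertain as separate sites. TGACTCA or its reverse complement was present in 29 of 196 (14.8%), against 4.59% of the others and 4.69% of all. TGACGTCA was present in 21 of 196 (10.7%, interval 6.76 to 15.9), against 454 of 20849 (2.18%, interval 1.98 to 2.38) and 2.26% of all. A full CRE contains the core TGACG, which was present in 94 of 196 (48.0%), against 23.6% of the others and 23.8% of all. A match is a description of the letters, not of a binding site, and no test was run on these shares.

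The same comparison was made among windows of similar CpG content. With a CpG ratio of at least 0.6, TGANTCA was present in 24 of 169 covered windows (14.2%, interval 9.32 to 20.4), against 3.27% of 9962 others, and TGACGTCA in 20 of 169 (11.8%, interval 7.38 to 17.7), against 3.58%. The windows of the copies Gm3417, Gm3448 and Tcte3 are among the 24. With a ratio under 0.6, TGANTCA was present in 8 of 27 covered windows (29.6%, interval 13.8 to 50.2), against 10.3% of 10887 others, and TGACGTCA in 1 of 27, against 0.891%. The core TGACG was present in 50.9% of covered windows with a ratio of at least 0.6 (interval 43.1 to 58.6), against 35.2% of the others. With a ratio under 0.6 it was present in 29.6% (interval 13.8 to 50.2), against 13.0%.

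Windows of divergent genes overlap, so the matches were also counted per peak. Of the 151 gene-end peaks over at least 1 promoter window, 29 held AP-1 letters in a window (19.2%, interval 13.3 to 26.4) and 14 a CRE (9.27%, interval 5.16 to 15.1). The 29 include the separate peaks at the copies Gm3417, Gm3448 and Tcte3. Either was present at 43 (28.5%), and 0 peaks held both, which allows up to 2.41% (upper exact bound). All 34 AP-1 matches and all 22 CRE matches in covered windows, counted per window, lay inside the peak. Windows were chosen by overlap with a peak and 181 of 196 lay wholly inside one, so this follows largely from the choice. A site in overlapping windows is counted in each. The median distance of matches from the peak midpoint was 140.5 bp for AP-1 and 135.75 bp for CRE, against 223.5 bp for the centres of the covered windows. The closest AP-1 letters were those at Myl12a (1.5 bp), Serpinb8 (4 bp) and Wdr54 (4.5 bp), and the closest CREs those at Ralgapa1 (6.5 bp), Cycs (56.5 bp) and Scg2 (58.5 bp).

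Among the 11 activity-induced genes with a covered window, 0 had AP-1 letters in it, 3 had a full CRE (Scg2, Dusp1 and Maff) and 7 had the core TGACG. Over all covered windows these shares were 16.3, 10.7 and 48.0%. A count of 0 of 11 genes allows up to 28.5% (upper exact bound), and the exact intervals of 3 of 11 (6.02 to 61.0%) and 7 of 11 (30.8 to 89.1%) include the shares over all covered windows. The windows cover 300 bases and peaks are several times wider, so letters elsewhere under a peak were not searched. Other letters set the scale of these differences. The CCAAT box (CCAAT) was present in 50.0% of covered windows, against 38.4% of the others and 38.5% of all, and the GC box (GGGCGG) in 65.3%, against 46.5% and 46.7%. With a CpG ratio of at least 0.6, the GC box was present in 70.4% of covered windows, against 74.2% of the others, and the CCAAT box in 50.3% (interval 42.5 to 58.1), against 36.3% (interval 35.4 to 37.3). The E-box CACGTG was present in 12.8%, against 7.87% and 7.91% of all. With a CpG ratio of at least 0.6 it was present in 14.2% (interval 9.32 to 20.4), against 11.3% of the others, within that interval. The ETS letters CCGGAAG were present in 13.8%, against 11.7% of the others and 11.7% of all. The CArG box was present in 2.04%, against 1.53% and 1.54% of all, and the NRF1 motif in 0.510%, against 1.35% and 1.34% of all. The intervals of the last 3 overlapped those of the other windows.

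**Figure D4:**
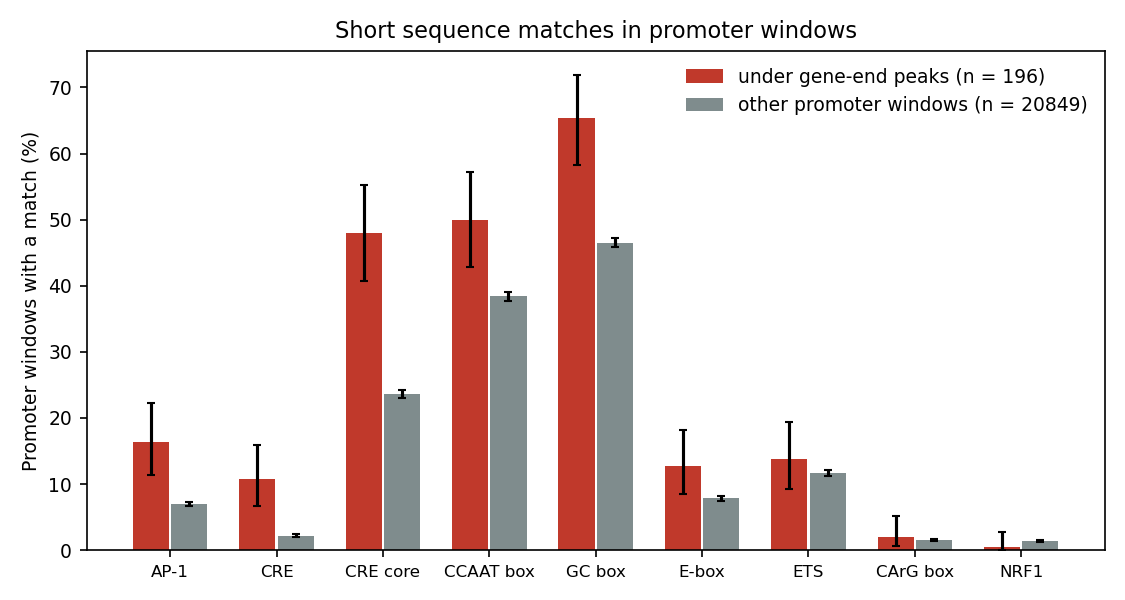
Share of promoter windows with at least 1 match to each set of letters, for 196 windows under gene-end peaks (red) and 20849 other windows (grey); bars start at 0 and error bars are exact 95% intervals. AP-1 letters were at 16.3 and 6.95% and the CRE at 10.7 and 2.18%.

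Gene-end peaks were somewhat wider than the rest of the list. Their median width was 1494 bp (quartiles 1236.5 and 1924.75 bp, range 703 to 5942 bp), against 1328 bp for the other 3074 peaks (quartiles 1088 and 1675.75 bp, range 299 to 18691 bp). At least 2 kb wide were 47 of 220 (21.4%), against 427 of 3074 (13.9%). Peaks at starts alone had a median of 1542.5 bp and those at far ends alone 1330 bp (n = 150 and 19). The other peaks had a median of 1366 bp inside genes and 1295 bp outside (n = 1599 and 1475). Width is not a measure of binding strength.

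The widest gene-end peaks gathered at developmental transcription factor genes, most of them known from regions or cell types other than CA1 pyramidal neurons. At Otp, a homeobox factor of the hypothalamus, the peak was 4981 bp wide. Other wide peaks were those at Stk40, a kinase-like gene (3689 bp), Gad1 (3665 bp), Otx1 (3563 bp), Trim9, a neuronal ubiquitin ligase (3559 bp), Hpcal4, a calcium sensor (3536 bp), Isl1 (3509 bp), Tbx20 (3419 bp) and Pou4f1 (2941 bp). Of the 10 widest gene-end peaks, 6 were at homeobox or T-box genes.

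Over 209 homeobox, T-box and forkhead genes, a set drawn up by gene symbol after the peaks were seen, 13 had a gene-end peak (6.22%, interval 3.35 to 10.4), against 1.21% of all protein-coding genes. Their 14 peaks had a median width of 2460.5 bp (quartiles 2091.75 and 3486.5 bp), and 11 were at least 2 kb wide, against a median of 1475 bp for the other 206 gene-end peaks. The set was drawn up once wide peaks at such genes had been seen, and its symbol rule leaves out other homeobox genes with narrower gene-end peaks, such as Hmbox1 (1185 bp) and Adnp2 (1887 bp), so the difference in width is a description of this set. Foxd1, a forkhead factor, had 1 peak at its start (2477 bp) and another at its far end (2268 bp). Lhx8 (2437 bp) and Tbx18 (2444 bp) had the peak nearly centred on the start, 10 and 40.5 bp from it. Irx1, Dlx2, Tbx3 and Hmx3 had the narrowest of these peaks, 1226 to 2033 bp. Besides Foxd1, Elmo2, an engulfment and cell motility adaptor, was the other gene with a peak at each end.

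**Figure D5:**
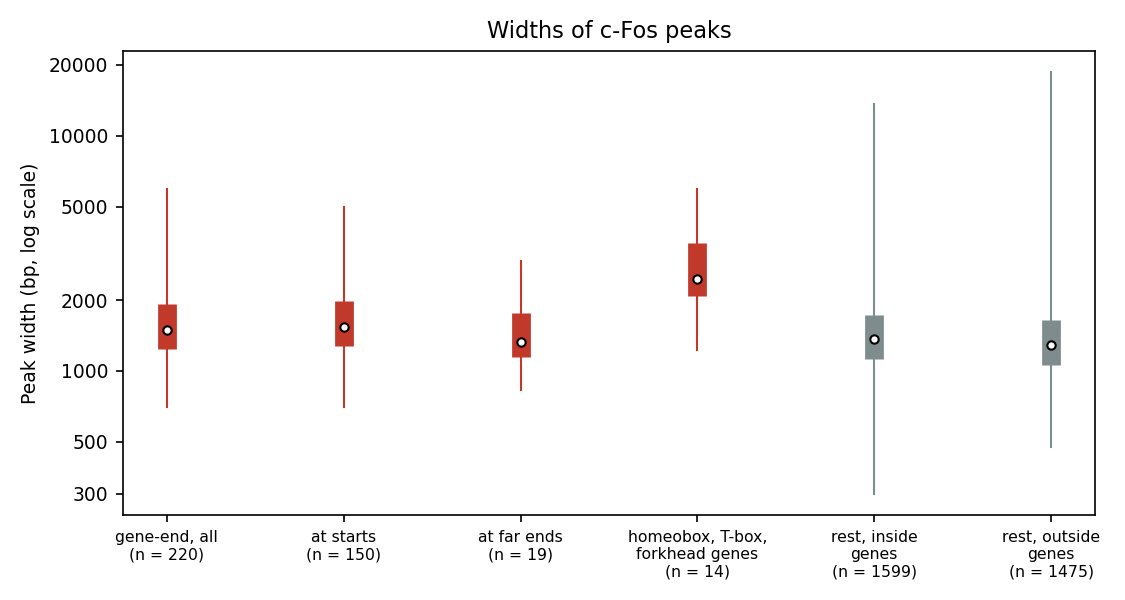
Width of c-Fos peaks (log scale, bp) in groups of gene-end peaks (red) and in the rest of the list (grey): dot, median; thick bar, quartiles; thin line, range. The 14 peaks at homeobox, T-box and forkhead genes have a median of 2460.5 bp, against 1494 bp for all gene-end peaks.

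Genes of the stress response of the endoplasmic reticulum also carried such peaks. Of 28 genes on a list drawn up after the peaks were seen, 6 had one (21.4%, interval 8.30 to 41.0), against 1.21% of all protein-coding genes; the list was written with the members in view, so its share is a description. Eif2ak3, encoding the stress kinase PERK, had its midpoint 131 bp inside the start. Its covered window held TGATTCA, a form of TGANTCA that is neither TGACTCA nor its reverse complement. Atf4, which PERK signalling induces, had a peak of 2381 bp. The midpoint lay 90 bp from the start of Edem3, a mannosidase of protein disposal, and 389 bp from that of Hsp90b1, a chaperone that shares the peak with Ttc41. Ppp1r15b, a phosphatase subunit that reverses PERK signalling, and Sil1, a cochaperone, were not oriented (433 and 409 bp). Rcan1, an inhibitor of the calcium-activated phosphatase calcineurin and on none of the lists, had a peak of 2273 bp with its midpoint 42 bp inside the start.

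Across chromosomes, the X chromosome had 0 gene-end peaks at 963 protein-coding genes, which allows up to 0.382% of genes (upper exact bound), against 261 of 20560 autosomal genes (1.27%, interval 1.12 to 1.43). It held only 21 peaks in all, so a count of 0 among them allows a share of up to 16.1%, above the 6.72% of autosomal peaks. Chromosome 17 had the highest share, 18 of 123 peaks (14.6%, interval 8.91 to 22.1). Of these, 7 lay in its first 23 Mb, 3 of them at Gm3417, Gm3448 and Tcte3, whose windows hold the same AP-1 letters at the same position (-1). These are neighbouring gene copies, and reads from near-identical copies could have been placed at either, so they are uncertain as separate sites. From 23 Mb on, 11 of 92 peaks were at gene ends (12%, interval 6.12 to 20.4).

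The share of gene-end peaks close to another peak was lower than in the rest of the list at each distance examined, with intervals that overlapped except at the widest. Another midpoint within 5 kb was found for 12 of 220 (5.45%, interval 2.85 to 9.33), against 216 of 3074 of the rest (7.03%, interval 6.15 to 7.99). The limit planned for this comparison was longer than 5 kb and shorter than 25 kb. Within that limit, another midpoint, counting also those within 5 kb, was found for 20 of 220 (9.09%, interval 5.64 to 13.7), against 435 of 3074 (14.2%, interval 12.9 to 15.4). Within 25 kb it was found for 32 of 220 (14.5%, interval 10.2 to 19.9), against 711 of 3074 (23.1%, interval 21.6 to 24.7). Of the 261 genes, 29 (11.1%) held a further peak inside the gene away from its ends, against 5.01% of all protein-coding genes. A further peak there or within 100 kb was found for 90 of the 261 (34.5%), against 18.4% of all protein-coding genes. In both comparisons, gene-end peaks of any gene, neighbours included, were not counted as further peaks. Wdfy2, for example, had 4 further peaks in its body. Genes with a gene-end peak had a median length of 26.5 kb (quartiles 11.2 and 50.6 kb), against 17.4 kb for all protein-coding genes (5.88 and 45.1 kb). A gene of another type, most often a long noncoding RNA (33 peaks), also had either of its ends within 1 kb of 37 of the 220 peaks (16.8%). The same share among the other peaks was not counted.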

How the data were processed

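What the authors deposited is a list of coordinates (chromosome, start and end of each peak) with no score. Its name calls the peaks replicated, so it was taken to describe all 3 kainic acid c-Fos samples. The submitters' processing notes name Trimmomatic (0.36), Bowtie2 (2.2.9), bedtools (2.27.1) and SEACR (1.1), with mm10 and sacCer3. Their roles and settings, and how replicates were combined, are not given in the sources used. A peak too weak to be called under those settings is in none of the counts.

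Positions are 1-based on mm10. The 1 peak on an unplaced sequence and 108 protein-coding genes starting below 3000000 were left out. Strand and promoter sequences came from RefSeq (GRCm38.p6). Shares have exact Clopper-Pearson intervals (scipy 1.17.1, Python 3.11.15), and no test was run. The assignment of peaks to gene ends and the letter search were tested on simulated data. Members and the 13 gene lists (336 genes) were chosen with earlier results of these data known. Named genes were listed genes with a gene-end peak, the 10 nearest and 10 widest peaks, and genes with 2 such peaks; others were named after their values were seen. Some genes chosen by this rule are not reported here. Alternatives were other distance limits, wider or merged peaks, all gene types and other letters.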

Additional observations from a re-analysis of the deposited data

How the results depend on the processing

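No paired analysis was possible because the coordinates carry nothing from single libraries; for the same reason leaving out a replicate could not be tried. Read depth and peak height are unknown. The 220 peaks became 163 and 306 with limits of 500 bp and 2 kb, 219 after merging and 220 with genes starting below 3000000 included. Of the 220, 194 covered the gene end; 203 peaks of the list did so at any distance of the midpoint. The 220 became 143 among the wider 1647 peaks and 348 with all gene types, which change the peaks or genes counted. The 261 genes became 168 among the wider peaks and 194 to 359 with other limits. Within 500 bp, 11 instead of 18 listed genes and 9 instead of 14 activity-induced genes had a peak; other settings gave 15 to 23 and 11 to 16. The share at starts was 80.3% within 2 kb, and the cause was not tested; it was 88.8 to 91.8% with other limits, wider or merged peaks, and 77.3% with all gene types, where the genes counted differ. Chosen after seeing the data, counting any start of the promoter table over all 220 peaks gave 70.0%, since genes without an entry cannot count, and leaving out the first 23 Mb of chromosome 17 gave 213 peaks. The share with a neighbouring peak, 9.09% at the distance planned, was 5.45% at 5 kb and 14.5% at 25 kb by construction. The AP-1 share of 16.3% was 14.8% for TGACTCA only, 17.1% for windows wholly inside a peak and 14.2% among CpG-rich windows (chosen after seeing the data), against 10.7% for the CRE. Median width stayed at 1474 to 1499 bp and median GC at 61.3 to 61.5%.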
